A study of Mus musculus with 12 samples.

Results

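The genes described here are 8 effector cytokine genes, Il9, Lif, Il3, Csf2, Il10, Il21, Il24 and Osm, out of 23700 loci listed for each RNA library. They were chosen by name because their levels stood apart between Bach2-deficient and wild type induced regulatory T cells (iTreg), so their values in that contrast are given as a description, with no test. The libraries came from CD4+ T cells of C57BL/6J mice, sorted as naive cells from spleen and lymph nodes. One RNA library each was made from freshly isolated naive cells and from wild type cells polarized for 3 days to Th1 (20 ng/ml IL-12 with antibody to IL-4), Th2 (20 ng/ml IL-4 with antibody to IFN-γ) or Th17 (20 ng/ml IL-6, 2 ng/ml TGF-β1 and both antibodies, each antibody at 10 μg/ml). The iTreg condition gave the remaining libraries: 3 wild type (WT) and 3 Bach2KO RNA libraries and 1 WT library of Bach2 chromatin immunoprecipitation (ChIP) came from cells cultured for 3 days in 100 IU/ml IL-2 and 5 ng/ml TGF-β1. Every culture, of either genotype, was stimulated with plate-bound antibodies to CD3 and CD28 at 10 μg/ml each, and the labels give neither the Bach2 allele nor whether replicates were separate animals. The 4 single libraries have no replicate. The iTreg medium differed from the helper media in holding IL-2 and in its TGF-β1 dose, and no IL-12, IL-4, IL-6 or neutralizing antibody is listed for it.

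Cytokines of this set are secreted by activated T cells and act on other cells through paired receptor chains that switch on JAK kinases and STAT factors. LIF and oncostatin M (Osm) belong to the IL-6 family, whose receptors share the chain gp130, encoded by Il6st. IL-9 and IL-21 use the common gamma chain, encoded by Il2rg, and IL-3 and GM-CSF (Csf2) share a common beta chain. IL-10 and IL-24 belong to the IL-10 family. Bach2 is a repressor that binds DNA with small Maf proteins at sites that contain the AP-1 heptamer TGACTCA, and the classical recognition element has TGC directly before that heptamer.

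The DNA under the Bach2 peaks with the highest fold enrichment near these genes is shown first. The peaks at Il9, Il10 and the Il3 and Csf2 pair hold the heptamer, while the one in Lif does not. Each line gives 201 bases of the plus strand of mm9 centred on a peak summit, with TGACTCA on either strand in capitals (read as TGAGTCA where it lies on the minus strand). The Il9 window is chr13:56578203-56578403, between genes and past the 3′ end of Il9. The Lif window is chr11:4168612-4168812, in an intron of Lif. The window shared by Il3 and Csf2 is chr11:54028619-54028819, between genes, and the Il10 window is chr1:132907192-132907392, upstream of Il10. The last line is the promoter of Il9 from RefSeq (table of build GRCm38.p6, found letter for letter in mm9 at chr13:56583619-56583868), the 250 bases before the start on the strand of the gene.
Il9 downstream peak: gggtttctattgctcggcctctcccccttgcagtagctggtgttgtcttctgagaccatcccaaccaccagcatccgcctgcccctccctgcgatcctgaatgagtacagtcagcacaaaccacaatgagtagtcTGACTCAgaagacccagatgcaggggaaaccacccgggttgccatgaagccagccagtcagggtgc
Lif intron peak: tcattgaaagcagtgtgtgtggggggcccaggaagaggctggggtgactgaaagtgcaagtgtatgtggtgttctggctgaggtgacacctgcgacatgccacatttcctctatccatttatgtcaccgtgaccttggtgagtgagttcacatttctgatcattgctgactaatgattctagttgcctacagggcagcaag
Il3 and Csf2 peak: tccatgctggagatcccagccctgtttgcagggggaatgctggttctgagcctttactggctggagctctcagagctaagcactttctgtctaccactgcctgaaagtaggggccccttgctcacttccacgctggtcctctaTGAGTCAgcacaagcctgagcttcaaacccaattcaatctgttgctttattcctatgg
Il10 upstream peak: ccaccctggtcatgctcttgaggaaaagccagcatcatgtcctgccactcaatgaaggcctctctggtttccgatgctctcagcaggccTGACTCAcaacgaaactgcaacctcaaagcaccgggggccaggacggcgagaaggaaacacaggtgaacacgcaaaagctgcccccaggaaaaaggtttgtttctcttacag
Il9 promoter: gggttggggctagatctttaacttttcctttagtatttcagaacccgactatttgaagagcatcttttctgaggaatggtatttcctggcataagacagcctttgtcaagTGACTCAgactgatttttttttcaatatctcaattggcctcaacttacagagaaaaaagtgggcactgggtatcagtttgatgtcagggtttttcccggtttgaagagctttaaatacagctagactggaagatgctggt

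Levels are FPKM, fragments per kilobase of transcript scaled to the mapped reads of the library, as deposited. Differences are Bach2KO minus WT on log2(FPKM + 0.5), which understates the change of genes near 0. The reads behind each value were estimated from the deposited interval, whose bounds lie 2 Poisson SD from the value, and cover counting error only. Reads implied over single-start loci came to between 12.4 M and 24.0 M a library. Bach2 itself, the deleted gene, stood at 17.9, 17.7 and 17.2 FPKM in WT and 3.91, 3.39 and 4.12 in Bach2KO iTreg cells, so the genotypes did not overlap. It fell by 2.08 (SE 0.0743, limma with Benjamini-Hochberg, adjusted p = 4.4e-06), and which part was deleted is not given in the labels. Over all loci, 8566 of 11473 tested (74.7%) passed this test, 41.0% higher and 33.6% lower in Bach2KO. The FPKM of a WT library summed to 432450 to 437849 and that of a Bach2KO library to 545183 to 553892, and equal sums lowered the median difference of all tested loci from 0.07 to -0.18 (-0.09 under quantile normalization). The calls were 55.0% higher as deposited, 37.7% with equal sums and 43.2% under quantile normalization. Summed FPKM was 303348 in the naive, 464264 in the Th1, 472069 in the Th2 and 430495 in the Th17 library. Comparisons with these single libraries are as deposited, with no rescaling.

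All 8 cytokine genes were higher in every Bach2KO library than in every WT library, which was so for 43.4% of tested loci, and this is the pattern for which they were chosen. Their median difference was 1.66 against 0.07 over all tested loci, and 1.52 with equal sums. All of them but Il3 and Il21 passed the filter of a mean of 0.5 FPKM over the 6 iTreg libraries, and Il9, Lif, Il10 and Il24 passed it through the Bach2KO libraries alone. Among the 4 single libraries the highest level lay in Th2 for 5 genes, in Th17 for Il9 and Il21 and in Th1 for Csf2. In bulk RNA, more cells that make a cytokine and more transcript in each cell cannot be told apart.

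**Figure D1:**
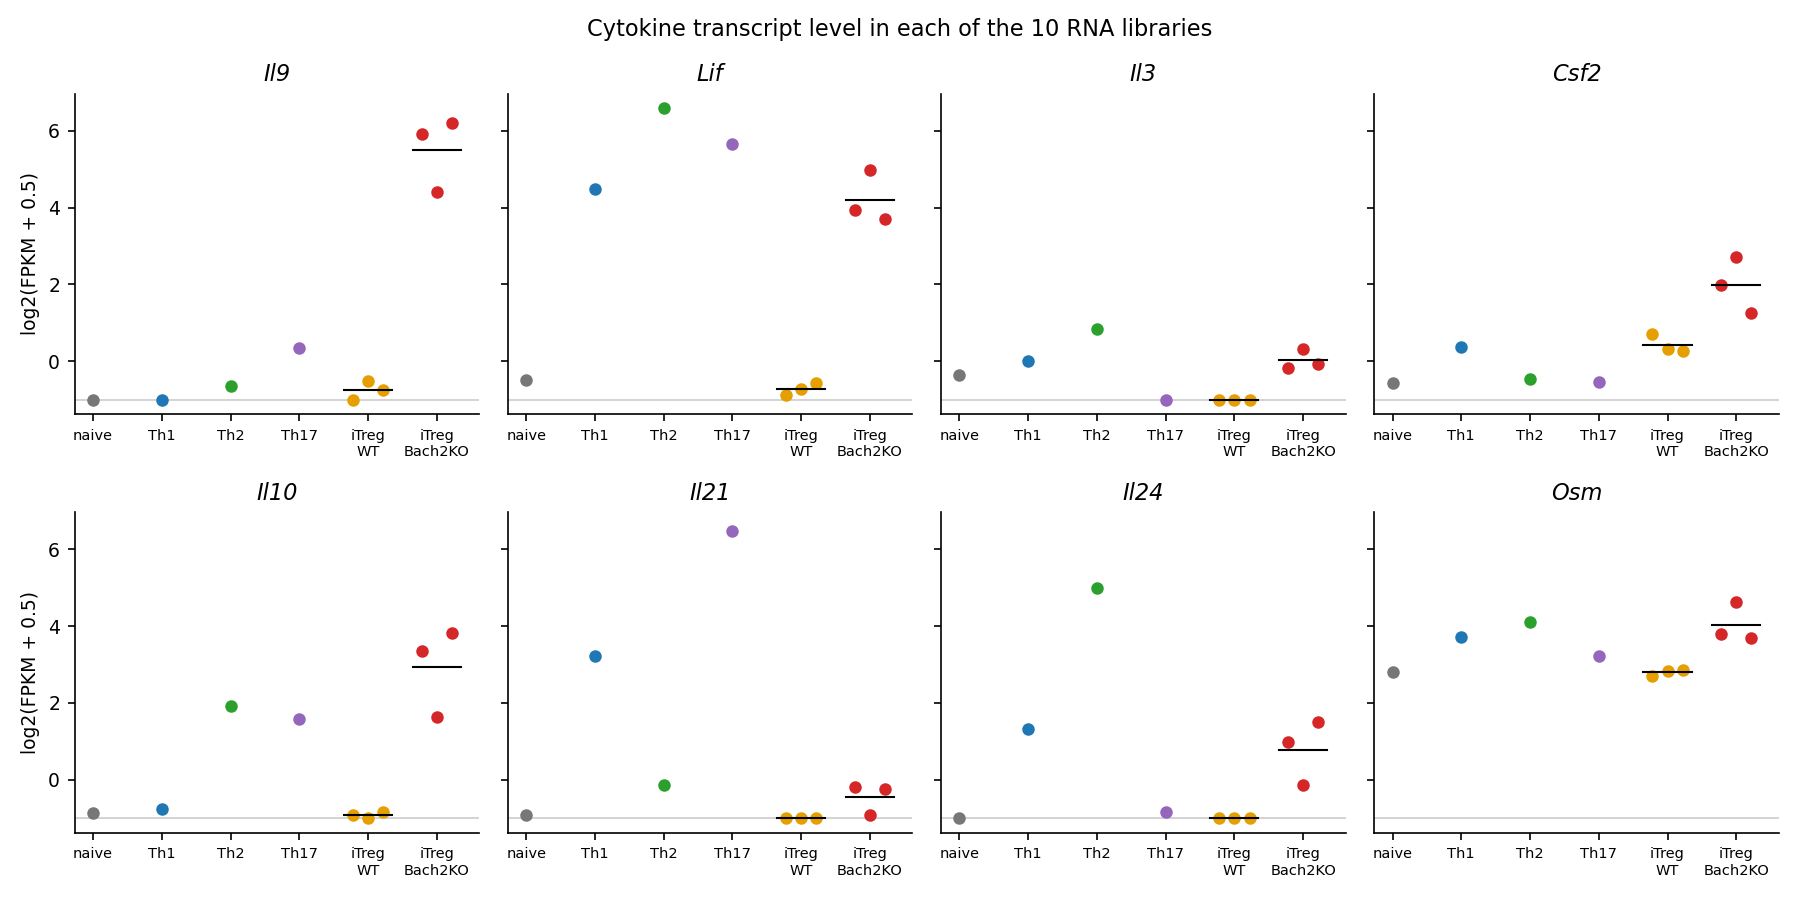
Transcript level on log2(FPKM + 0.5) of each of the 8 genes (panels) in naive, Th1, Th2 and Th17 cells (1 library each) and in WT and Bach2KO iTreg cells (3 libraries each, points; black lines are means; the grey line is 0 FPKM). The Bach2KO points lie above the WT points in every panel, and in the panels of Il9 and Csf2 they lie above all other libraries.

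Il9 encodes a growth factor of T cells and mast cells (chromosome 13, 56580638 to 56583607, minus strand, mm9). In the iTreg cultures it was at 0, 0.194 and 0.0929 FPKM in WT, from 0, 2 and 1 implied reads, and at 59.7, 20.7 and 73.7 FPKM in Bach2KO, from 727, 225 and 751 reads. It was listed at 0 in naive and Th1 cells, and stood at 0.140 FPKM in Th2 and 0.774 in Th17 cells. The Bach2KO libraries were therefore the only ones of the 10 in which the gene had more than 5 implied reads. The difference was 6.27, with a mean of 51.4 ± 27.5 FPKM in Bach2KO (SD, n = 3).

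Lif encodes a cytokine of the IL-6 family (chromosome 11, 4157571 to 4172517, plus strand, 2 annotated starts). It was at 0.0469, 0.111 and 0.181 FPKM in WT and at 14.8, 30.9 and 12.5 FPKM in Bach2KO iTreg cells, a difference of 4.91. Unlike Il9, it was abundant in helper cells, at 96.0 FPKM in the Th2, 50.0 in the Th17 and 22.1 in the Th1 library against 0.219 in naive cells. The Th1 level fell inside the Bach2KO range, and the Th2 level was 4.96 times the Bach2KO mean of 19.4 ± 10.0 FPKM. WT iTreg cells were the only cultured cells that stayed at the naive level or under it.

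Osm, the close relative of Lif and its neighbour (chromosome 11, 4136788 to 4141029, plus strand), was the only gene of the set with a substantial level in every library. It was at 6.04, 6.61 and 6.81 FPKM in WT and at 13.3, 24.1 and 12.4 FPKM in Bach2KO iTreg cells, 2.56 times higher on average, a difference of 1.23 (0.97 with equal sums). As deposited, the naive level, 6.44 FPKM, lay inside the WT range, but the naive library had a lower FPKM sum than every WT library. Th1 and Th2 cells, at 12.7 and 16.9 FPKM, lay inside the Bach2KO range, and Th17 cells, at 8.84, lay between the genotypes.

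Csf2, which encodes the myeloid growth factor GM-CSF (chromosome 11, 54060772 to 54063401, minus strand), was the second gene whose Bach2KO libraries all exceeded the other 7 libraries, as 15.1% of tested loci did. It was at 1.14, 0.739 and 0.707 FPKM in WT and at 3.48, 6.05 and 1.89 FPKM in Bach2KO iTreg cells, 4.41 times higher on average, a difference of 1.55. The helper libraries held little of it, with 0.796 FPKM in Th1 cells and 0.224, 0.186 and 0.177 in Th2, Th17 and naive cells. Th1 cells, the highest of these, lay inside the WT iTreg range.

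Il3, a growth factor gene of blood cells that lies beside Csf2 (chromosome 11, 54078587 to 54080781, minus strand), was near the limit of detection everywhere. It was listed at 0 in all 3 WT libraries and stood at 0.380, 0.758 and 0.454 FPKM in Bach2KO, from 9, 16 and 9 implied reads. Th2 cells had the highest listed level, 1.29 FPKM from 18 reads, and Th17 cells were listed at 0. The Th2 interval, 0.684 to 1.90 FPKM, overlapped those of Th1 cells and of Bach2KO replicates 2 and 3. The naive value, 0.274 FPKM, and the Th1 value, 0.511, had deposited intervals that overlap those of the Bach2KO libraries, so their order was not resolved at this depth.

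Il10 encodes an anti-inflammatory cytokine made by regulatory and effector T cells (chromosome 1, 132916422 to 132921547, plus strand). It was at 0.0287, 0 and 0.0560 FPKM in WT, from at most 2 implied reads, and at 9.79, 2.61 and 13.5 FPKM in Bach2KO iTreg cells, a difference of 3.86. Thus the WT iTreg cultures held almost no Il10 transcript at 3 days. Th2 cells, at 3.28 FPKM, lay inside the Bach2KO range and Th17 cells, at 2.47, just under it, with deposited intervals that overlap each other and that of Bach2KO replicate 2, while Th1 cells were at 0.0855 and naive cells at 0.0531.

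Il24, a relative of Il10 on the same chromosome (132778651 to 132783988, minus strand), was mainly a Th2 transcript in these data. It was listed at 0 in the 3 WT iTreg libraries and stood at 1.46, 0.402 and 2.32 FPKM in Bach2KO, from 49, 12 and 65 implied reads. Th2 cells held 31.4 FPKM, 22.5 times the Bach2KO mean, and Th1 cells 2.01. It was at 0.0563 FPKM in Th17 cells, from 1 read, and listed at 0 in naive cells.

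Il21, which encodes a helper cytokine for B cells (chromosome 3, 37121681 to 37131540, minus strand), was lowest of the set in Bach2KO cells. It was listed at 0 in the 3 WT iTreg libraries and stood at 0.380, 0.0320 and 0.341 FPKM in Bach2KO, from 40, 3 and 30 implied reads. Th17 cells held 88.2 FPKM, 351.8 times the Bach2KO mean, and Th1 cells 8.78, while Th2 cells were at 0.405 and naive cells at 0.0304. The interval of Bach2KO replicate 2 overlapped that of naive cells, and those of replicates 1 and 3 overlapped that of Th2 cells (0.243 to 0.566 FPKM), so their order was not resolved at this depth.

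The 3 Bach2KO libraries were not alike for these genes, and replicate 2 was always at one end. It was the lowest of the 3 for Il9, Il10, Il24 and Il21, with a deposited interval under both others in all 4 cases. It was the highest for Lif, Osm, Csf2 and Il3, with an interval above both others for the first 3. The highest library exceeded the lowest 3.56 times for Il9, 5.19 times for Il10, 5.77 times for Il24 and 11.9 times for Il21. Those ratios were 2.48 for Lif, 1.94 for Osm, 3.21 for Csf2 and 1.99 for Il3. Over all tested loci replicate 2 was highest in 45.2% and lowest in 39.3%, and its interval lay above both others in 16.9% and under both in 12.2%. Leaving it out moved the difference to 6.82 for Il9, 4.51 for Il10, 4.53 for Lif and 0.94 for Osm. This split was noticed after the values were seen and was not tested.

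**Figure D2:**
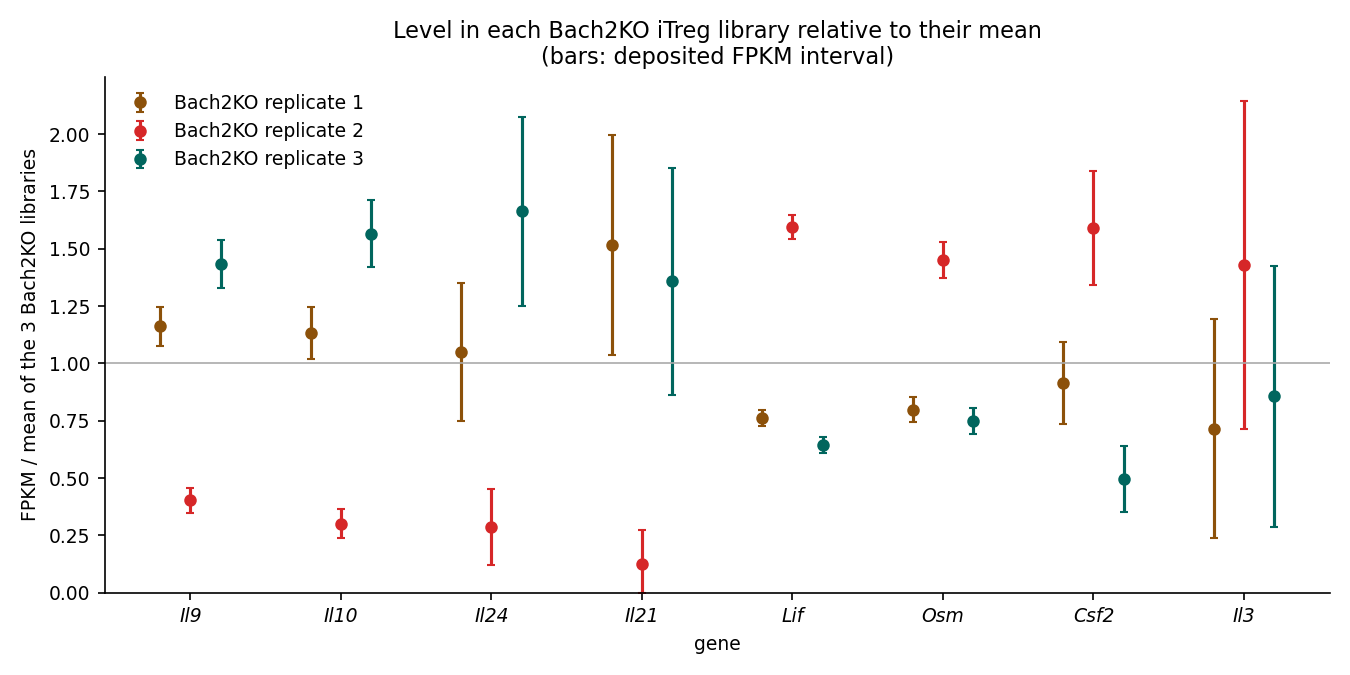
FPKM of each of the 3 Bach2KO iTreg libraries divided by their mean, for the 8 genes, with the deposited FPKM interval as bars. Replicate 2 lies under both others for Il9, Il10, Il24 and Il21 and above both for Lif, Osm, Csf2 and Il3, where the bars overlap only for Il3.

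Other cytokine genes also lay at one end in replicate 2, as most tested loci did. Of the 10 CD4 T cell markers read below, 5 were highest and 5 lowest there. Il4 and Il13, the classical Th2 cytokine genes, were at 6.70 and 6.65 FPKM in replicate 2 against 13.5 and 14.4 for Il4 and 15.6 and 16.8 for Il13 in replicates 1 and 3. Ifng, the Th1 cytokine gene, was at 22.8 FPKM in replicate 2 against 10.6 and 3.99. Of 13 tested genes of other T cell cytokines replicate 2 was highest in 11 and lowest in 2, against 45.2% and 39.3% of all tested loci. Its deposited interval lay above both others in 10 of the 13 and under both in 1, against 16.9% and 12.2% of all tested loci. Foxp3, the factor that defines regulatory T cells, was also highest there, at 19.7 FPKM against 7.68 and 5.81, and all 3 lay under the WT values of 69.6, 66.7 and 81.1. Reads implied in replicate 2 were 21.7 M, between the 20.1 M and 24.0 M of the others.

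Receptor genes for these cytokines were examined next, from a list of 15. Of 9 tested, 4 rose and 1 fell in Bach2KO, with a median of -0.0086, where 41.0% and 33.6% of all loci did so. The gene that fell was Il6st, the gp130 chain on which both LIF and oncostatin M depend. It was at 50.5, 45.7 and 47.1 FPKM in WT and 10.3, 9.43 and 10.7 FPKM in Bach2KO cells, with no overlap, and fell by 2.18 (SE 0.0638, limma adjusted p = 2.4e-06). Naive and Th17 cells, at 47.4 and 41.4 FPKM, were close to WT iTreg cells, and Th1 and Th2 cells, at 19.6 and 13.4, lay nearer to Bach2KO. The partner chains Lifr and Osmr were under 0.1 FPKM in all 10 libraries, so the specific receptors of Lif and Osm were barely detected in these T cells.

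The common gamma chain gene Il2rg was at 258, 238 and 272 FPKM in WT and 340, 419 and 328 in Bach2KO cells. It rose by 0.49 (SE 0.106, limma adjusted p = 0.0060), a call lost with equal sums (0.22, adjusted p = 0.0866). Il21r, the specific IL-21 receptor chain gene, rose from 52.5 ± 2.14 to 82.6 ± 3.87 FPKM (SD, n = 3 each), a difference of 0.65 (limma adjusted p = 8.2e-05). Il10ra, the IL-10 binding chain gene, rose from 12.3 ± 1.37 to 21.3 ± 1.10 FPKM (0.77, limma adjusted p = 3.5e-04). Il20rb, a chain of the IL-24 receptors, rose from 0.886 ± 0.157 to 1.94 ± 0.0631 FPKM (0.82, limma adjusted p = 6.9e-04), while its partners Il20ra and Il22ra1 were under 0.03 FPKM in every library. Thus the IL-21 and IL-10 receptor pairs were both present, whereas only one chain of the IL-24 receptors was.

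The IL-10 receptor partner Il10rb was not called, at 26.0 ± 2.13 FPKM in WT and 25.8 ± 0.879 in Bach2KO (-0.0086, limma adjusted p = 0.915). Il3ra and Csf2ra, the ligand-binding chain genes for IL-3 and GM-CSF, were not called either, at -0.25 (adjusted p = 0.0696) and -0.19 (adjusted p = 0.140). All 3 became lower calls under quantile normalization and with equal sums, as did Il3ra without Bach2KO replicate 3 (-0.31, adjusted p = 0.0496) and Csf2ra without Bach2KO replicate 2 (-0.27, adjusted p = 0.0311). Csf2rb, the common beta chain gene, and its relative Csf2rb2 were under 0.2 FPKM in every library. Il9r was at 1.89, 0.258 and 0.696 FPKM in WT and 0.312, 0.202 and 0.407 in Bach2KO and was not called (-0.69, adjusted p = 0.175), but was called lower without WT replicate 2 (-1.07, adjusted p = 0.0337). The B cell marker Cd79a was at 16.7, 4.65 and 10.6 FPKM in the same WT libraries, in the same order, and its part in the Il9r values was not tested.

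Of 16 genes of JAK-STAT signalling and its feedback, all tested, 11 rose and 3 fell while Stat4 and Stat6 passed no threshold (median 0.59). Among all loci tested these shares were 41.0% and 33.6%. Among those that rose were genes known as targets of STAT factors. Socs1, a feedback inhibitor of JAK kinases, was at 14.8, 15.5 and 16.1 FPKM in WT and 162, 181 and 141 in Bach2KO cells, and rose by 3.33 (SE 0.0959, limma adjusted p = 2.3e-06). Cish, another inhibitor of the same family, rose by 2.78 from 30.3 ± 2.51 to 212 ± 19.7 FPKM, and the kinase gene Pim1 by 2.32 from 55.5 ± 6.69 to 277 ± 8.72 FPKM. The phosphatase gene Ptpn2 rose by 0.77. Jak1, a kinase that serves gamma chain and gp130 receptors, fell by 1.09 from 228 ± 13.7 to 107 ± 6.97 FPKM (SD, n = 3 each; limma adjusted p = 3.2e-05). Of the 3 lower calls 1 was left when any 1 WT library was left out.

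Transcription factors with known roles at cytokine genes were listed as 42, of which 40 were tested. Of these 23 rose and 9 fell (median 0.97), beside 41.0% higher and 33.6% lower of all loci tested, and 14 were lower calls with equal sums. Of the 23, 5 had a WT mean under 0.5 FPKM and passed the filter only through Bach2KO. Bhlhe40, a factor that supports GM-CSF and limits IL-10 in T cells, rose by 2.71 from 10.3 ± 0.588 to 70.4 ± 5.00 FPKM (SE 0.0688, limma adjusted p = 1.7e-06). Eomes, a T-box factor gene, stayed under 0.3 FPKM in WT iTreg cells and reached 16.5, 19.6 and 14.6 FPKM in Bach2KO cells and passed the filter only through Bach2KO. The Notch effector gene Rbpj rose by 2.47 and the Runt factor gene Runx3 by 3.09. Junb and Jund, partners in AP-1 dimers that bind the same heptamer as Bach2, rose by 2.29 and 1.74, from 33.1 ± 3.23 to 164 ± 7.52 FPKM and from 74.8 ± 3.66 to 251 ± 14.2 FPKM.

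Relatives of the 8 cytokines, mostly in the IL-6, IL-10 and gamma chain families, were listed as 16 genes, of which 6 were tested. Ebi3 rose, Clcf1 fell and Cntf was not called, while Il4, Il13 and Il2 were higher but passed the filter only through Bach2KO, so no count is read from these 6. Clcf1, an IL-6 family ligand gene, was at 95.6, 99.6 and 89.8 FPKM in WT and 24.6, 23.3 and 24.1 in Bach2KO cells, and fell by 1.96 (SE 0.0504, limma adjusted p = 1.7e-06), opposite in direction to Lif and Osm. Ebi3, a subunit of IL-27 and IL-35, rose by 2.66 from 2.57 ± 1.18 to 18.2 ± 3.75 FPKM. Il4 and Il13 were listed at 0 in at least 2 WT libraries each, with means of 11.5 ± 4.19 and 13.0 ± 5.55 FPKM in Bach2KO. Il6, Il11, Il22, Il5, Il19 and Il20 were under 0.5 FPKM in all 10 libraries, so most of the relatives stayed near the limit of detection.

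Among 16 further T cell cytokine genes 13 were tested, of which 8 rose and 2 fell (median 0.71), where 41.0% and 33.6% of all tested loci did so. Of the 8, Ifng passed the filter only through Bach2KO, and Il17a, Il17f and Fasl were not called. The neighbours Tnf and Lta rose by 3.47 and 2.57, from 2.90 ± 0.784 to 37.7 ± 12.3 FPKM and from 55.5 ± 4.83 to 348 ± 137 FPKM. Tnfsf11, which encodes RANKL, rose by 2.04 and Tnfsf14, which encodes LIGHT, by 1.72. Cd40lg, the ligand gene for B cell help, fell by 1.17 from 38.1 ± 1.16 to 16.7 ± 1.93 FPKM, and Il16 fell by 1.15 from 86.5 ± 0.154 to 39.0 ± 3.83 FPKM (SD, n = 3 each).

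**Figure D3:**
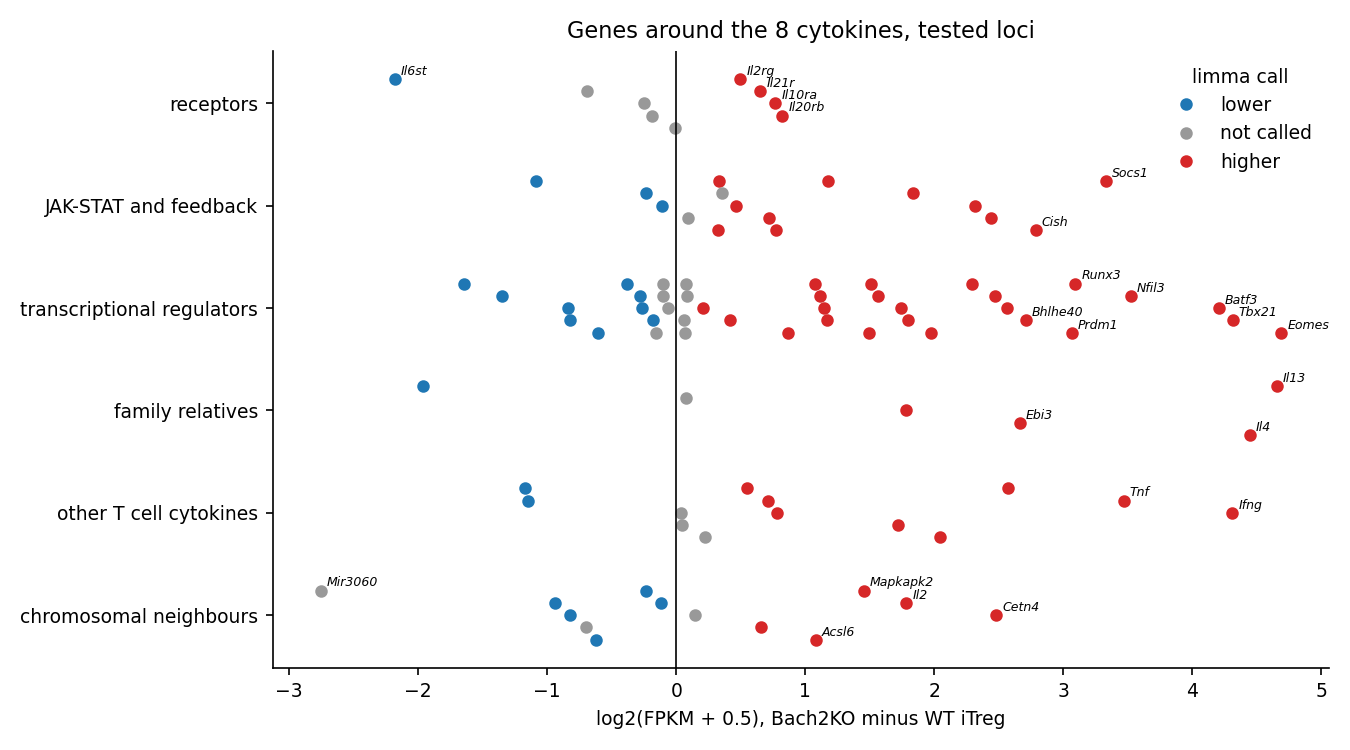
Difference of Bach2KO minus WT iTreg cells on log2(FPKM + 0.5) for each tested gene of 5 lists and of the chromosomal neighbours (rows), coloured by the limma call at an adjusted p of 0.05. Il6st lies at -2.18 among receptors and Socs1 at 3.33 in the JAK-STAT row, while 5 neighbours lie above 0 and 5 under it among those called.

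Loci within 100 kb of the 8 genes were read to see whether their neighbourhoods moved with them. Of 21 such loci 13 were tested, of which 5 rose and 5 fell (median -0.12), against 41.0% higher and 33.6% lower over all loci. Of the 5 that rose, Acsl6, Cetn4 and Il2 had WT means under 0.5 FPKM and passed the filter only through Bach2KO. Beside Il21, the centrin gene Cetn4 rose by 2.48 from 0.467 ± 0.0681 to 4.91 ± 0.501 FPKM and Il2, the T cell growth factor gene, by 1.78 from 0.387 ± 0.162 to 2.63 ± 0.978 FPKM, while Bbs12 was not called (0.14; -0.11 with equal sums). Beside Il10, the kinase gene Mapkapk2 rose by 1.45 from 28.0 ± 1.61 to 77.5 ± 1.99 FPKM. Acsl6, a fatty acid ligase gene beside Il3, rose by 1.08 and Fbxl21 near Il9 fell by 0.82.

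The block around Lif and Osm was mixed. The splicing factor gene Sf3a1 rose by 0.65 from 18.9 ± 0.509 to 30.1 ± 2.76 FPKM. Ccdc157 fell by 0.94, Rnf215 by 0.62, Gatsl3 by 0.23 and Tbc1d10a by 0.12 (limma adjusted p = 0.0174). The last call was lost when WT replicate 1, WT replicate 2 or Bach2KO replicate 1 was left out (adjusted p between 0.0532 and 0.0615). The microRNA locus Mir3060 was at 96.6, 98.5 and 94.2 FPKM in WT and 41.6, 140 and 0 in Bach2KO and was not called. Faim3, which encodes a receptor for IgM and holds the peak near Il24, was at 3.81, 0.200 and 1.58 FPKM in WT, in the order of Cd79a, and was not called (-0.70). Without WT replicate 2 it was called lower (-1.40, adjusted p = 0.0132).

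Bach2 binding was measured in 1 ChIP library of WT iTreg cells, with 22494 peaks called by the authors against the input. Fold enrichment is the authors' value for a peak and has no replicate. All 8 genes had at least 1 peak summit within 50 kb, as 64.4% of loci did, and Il9, Lif, Il10, Il24 and Osm had one within 10 kb, as 39.9% of loci did. The windows held 24 distinct peaks: 4 for Il9, 9 for Lif, 6 for Osm, 5 of them shared with Lif, 2 for Il3 and Csf2 together, 6 for Il10 and 1 each for Il21 and Il24. The median over all loci was 1. The peaks just inside the 50 kb limit lay 49.9 kb from Il3 and 48.1 kb from Il21, and the nearest beyond it lay 51.5 kb from Il21.

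By fold, the strongest of the 24 was the peak printed above for Il9, at 52.84-fold with 199 tags, against a median of 12.84 over all peaks. By the authors' score the peak printed for Il3 and Csf2 stood above the Il9 peak (1491.56 against 1389.19). The summit of the Il9 peak lay 2.34 kb past the 3′ end of Il9 and 5.30 kb from its start, and Il9 was its nearest locus. It ranked at percentile 96.3 of all peaks by fold. The printed Il9 promoter, which also holds the heptamer, from 140 bases before the start, had no called peak.

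The next by fold lay inside Lif, in an intron, at 42.59-fold with 127 tags and percentile 93.8. It lay 11.1 kb from the outer edge of the locus, which was taken as the start although Lif has 2 annotated starts. Its printed window holds no TGACTCA. Another Lif peak, 38.1 kb past the gene at 28.09-fold, does hold it. The peak nearest to this outer start of Lif lay 4.48 kb upstream at 11.52-fold. The Osm gene had a peak of 1523 bp at its own start, with the summit 67 bases from the start and in an exon, 142 tags and 11.93-fold, and without the heptamer.

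Il3 and Csf2 shared their 2 peaks. The printed one, at 29.73-fold with 227 tags, the most tags of the 24, lay 32.1 kb past Csf2 and 49.9 kb past Il3, and closest to 4933405E24Rik, which was listed at or near 0 in every library. It was the only one of the 24 whose window held TGC directly before the heptamer, the longer element, found in 2.71% of all peaks. The other peak, at 12.19-fold, lay 27.4 kb upstream of Il3. No peak lay between the pair or within 10 kb of either gene.

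Il10 was surrounded by 6 peaks, of which 4 hold the heptamer. The strongest by fold, at 24.65-fold, lay 9.13 kb upstream, and 2 lay in introns at 0.821 and 1.29 kb from the start (7.89-fold and 18.28-fold). One 13.3 kb past the gene reached 23.14-fold, with a higher score than the upstream peak (321.23 against 206.92). Each of these 4 had the heptamer within 100 bp of its summit. The 1 peak of Il21, at 24.38-fold with 67 tags, lay 48.1 kb past the gene towards Il2 and had no heptamer. The 1 peak of Il24, inside Faim3 and 2.15 kb past Il24, was weak, at 7.14-fold and percentile 8.50. The genes of the set thus differed in how near and how strongly Bach2 was found.

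**Figure D4:**
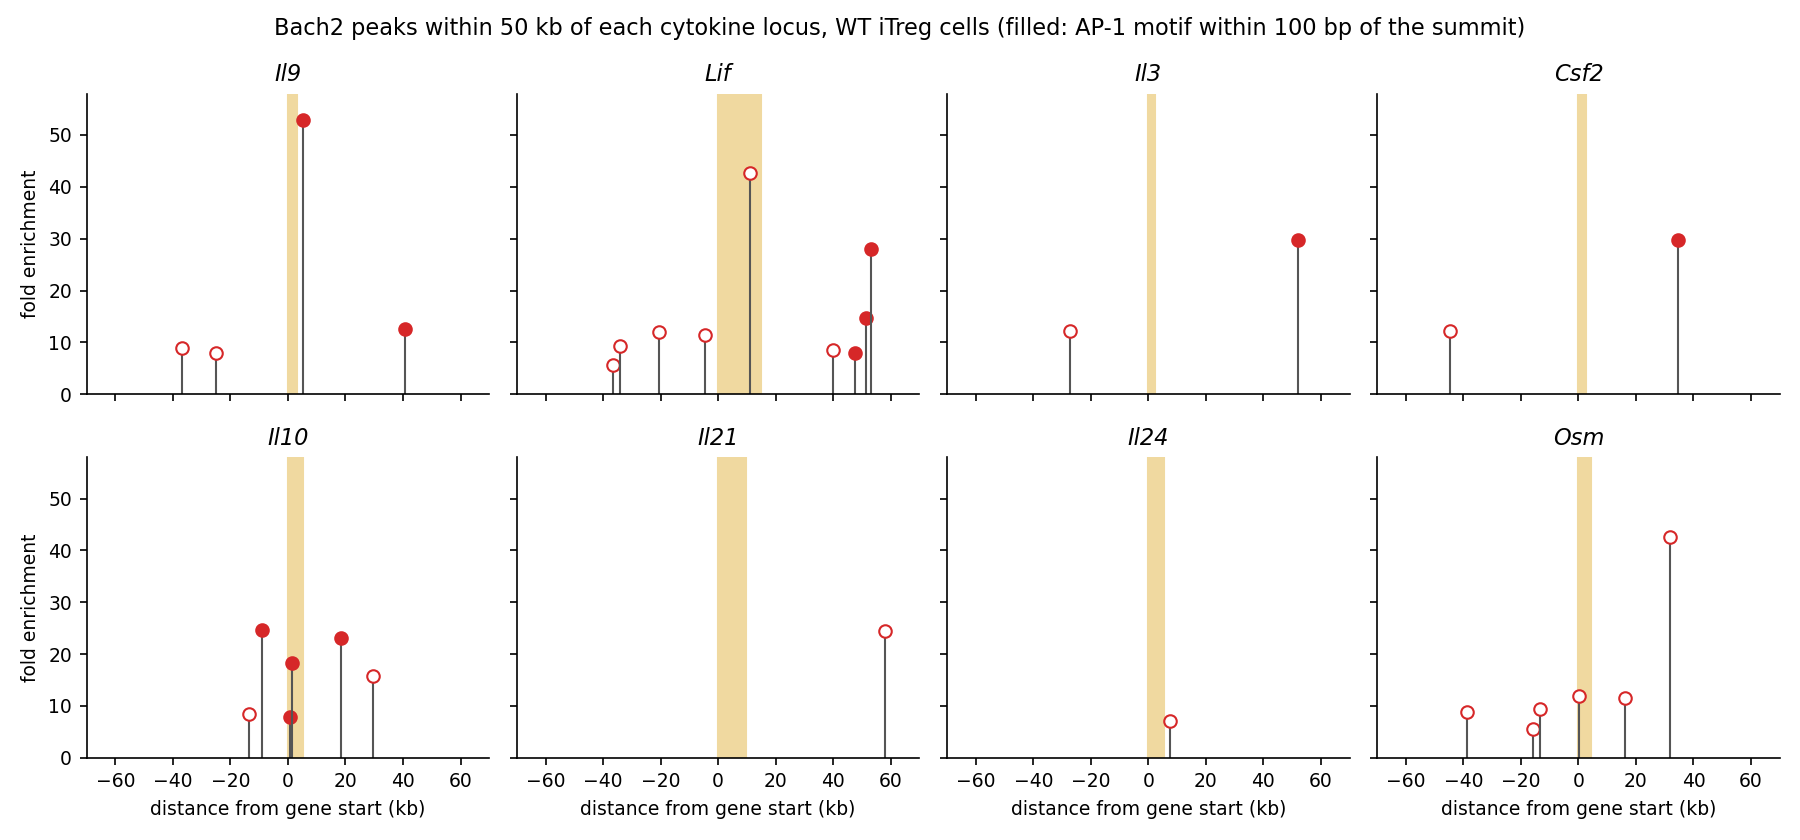
Fold enrichment of each Bach2 peak within 50 kb of the 8 loci against the distance of its summit from the gene start in kb, positive in the direction of transcription; the shaded span is the gene and filled points have TGACTCA within 100 bp of the summit. The highest points are the Il9 peak at 52.84 and the Lif intron peak at 42.59, which also appears in the Osm panel, and Il24 has 1 point at 7.14.

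The heptamer TGACTCA, searched on both strands, lay within 100 bp of the summit in 10 of the 24 peaks (41.7%) against 38.6% of all peaks, so the peaks near these genes were close to the background. Of the 7 with at least 20-fold enrichment 5 held it, against 53.5% of all peaks of that strength. In RefSeq promoters of 300 bases (250 before and 50 after the start; build GRCm38.p6), 5 of the 8 genes were matched, Il9, Lif, Il3, Csf2 and Il21. The heptamer lay in those of Il9 and Lif, and in 5.20% of all 32851 promoters. A match describes letters only and does not show binding.

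The genes with the pattern most like each cytokine were found by Pearson correlation of log2(FPKM + 0.5) over the 10 libraries among 9920 loci, as a description. The 10 libraries share 3 WT and 3 Bach2KO iTreg samples, so the conditions weigh unequally. Among the loci most like Il9 were Havcr2, which encodes the inhibitory receptor TIM-3 (r = 0.98), and Nov (0.98), both under 0.3 FPKM outside Bach2KO cells. Lif was most like its own neighbour Sf3a1 (0.99), then Suv39h2 (0.99) and Alms1 (0.99). Il10 was most like Il4ra, the IL-4 receptor chain gene (0.94), followed by Rbbp4 and Pgd (0.93 each).

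Il4ra was at 160, 116 and 158 FPKM in Bach2KO, against 41.1, 42.9 and 42.7 in WT, so it too was lowest in Bach2KO replicate 2. Il24 was most like Ddc (0.98), Itgb5 (0.97) and Plcd1 (0.97), the last at 17.7 FPKM in Th2 cells. Il21 was most like Atrnl1 (0.99), D6Mm5e (0.99) and Plin2 (0.98), all highest in Th17 cells. Osm was most like Larp1, Nup54 and Stard7 (0.97 each), Csf2 like Ogfr, Kcnab2 and Ttc35 (0.97 each), and Il3 like Vprbp (0.98), Mboat1 (0.97) and Tmem209 (0.97). Il3 rested on at most 18 implied reads in any library, so its correlations, also with the other cytokine genes, are limited by counting error. Among the 8 genes themselves the highest correlations were between Il9 and Il10 (0.86), Il3 and Osm (0.85), Il3 and Il24 (0.84) and Lif and Osm (0.83). Csf2 and Il21 had the lowest (-0.36). All 8 were chosen for higher levels in Bach2KO than in WT, and 6 of the 10 libraries are of these groups. Positive correlations among the 8 are therefore partly built in.

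Markers of cell types were read in the same libraries. CD4 T cell markers were present in all 10, with Cd4 between 139 and 249 FPKM, and the summed level of 10 such markers was 2044 to 2104 FPKM in WT and 2236 to 2278 in Bach2KO. Of the 10, 5 fell (Cd3e, Cd3d, Cd5, Lck and Foxp3), 3 were not called and 2 rose, Thy1 from 207 ± 3.91 to 521 ± 21.6 FPKM and Il2ra from 78.6 ± 14.8 to 312 ± 59.6. Over all tested loci 33.6% fell and 41.0% rose. Marker sums are as deposited, and the FPKM of a whole library summed to 432450 to 437849 in WT and 545183 to 553892 in Bach2KO. Of 9 mast cell and basophil markers, cells that also make several of these cytokines, none reached the filter, their sum was 0.515 to 0.817 FPKM in WT and 0.597 to 0.658 in Bach2KO, and Fcer1a, Cma1 and Mcpt4 were at 0 in all 6 iTreg libraries. The sum of 8 B cell markers was 11.6 to 64.6 FPKM in WT and 13.7 to 20.6 in Bach2KO. Of 10 myeloid and dendritic markers 3 were tested and lower, Itgam and Fcgr3 passing the filter only through WT, with a sum of 10.2 to 10.95 FPKM in WT and 1.49 to 2.44 in Bach2KO, and Clec9a was at 0 in all 6. Of 7 CD8, NK and gamma-delta markers 2 were tested: Cd8b1 rose from 4.91 to 9.19 FPKM, and Cd8a, at 0.0925 FPKM in WT and 2.23 in Bach2KO, passed the filter only through Bach2KO. The sum of the 7 was 4.54 to 5.48 FPKM in WT and 11.1 to 12.1 in Bach2KO. The part of these other cells in the cytokine levels was not tested.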

How the data were processed

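RNA was measured in 10 libraries and Bach2 binding in 1 ChIP library with 1 input. The expression values are FPKM made by the authors with TopHat and Cufflinks on mm9 from unique 50-bp reads, per the labels' protocols; neither their versions nor the annotation used are named there. The members and gene lists were chosen with earlier results of these data known. The genotypes in iTreg cells (3 libraries each) were compared by limma 3.58.1 (R 4.3.3; trend, two-sided) on log2(FPKM + 0.5) at loci whose mean over the 6 reached 0.5 FPKM, and p-values were Benjamini-Hochberg adjusted over 11473 loci at 0.05. The 8 cytokine genes were left without a test. The fit was tested on simulated data. The 72 loci with a failed Cufflinks estimate in an iTreg library were kept. P-values measure only the spread between these samples, which may be technical.

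Per the file headers, the authors called peaks at a p-value cutoff of 1e-05 with MACS 1.4.0beta on 8992019 ChIP and 9999999 input tags. Per the submitters' processing notes, Bowtie was the aligner named. For each peak the deposited tag count, fold enrichment (a ratio), FDR in percent and score (10 times the −log10 p) are the authors' values. Gene places come from the GENCODE annotation of mm9. The text names all 8 genes, up to 6 called genes per list by smallest adjusted p, receptor genes of at least 1 FPKM in a group mean, tested neighbours, Bach2, the 3 most similar loci per gene and the strongest and nearest peak. Others are named as examples, chosen after their values were seen, and some that the rule names are not reported here. Alternatives were the pseudocount, the filter, 2 scalings, the replicate block, the variance settings, leaving out each library, and the peak window, strength and motif.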

Additional observations from a re-analysis of the deposited data

How the results depend on the processing

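The median difference of the 8 genes was 1.66 and stood at 3.12 with a pseudocount of 0.1, 1.23 with 1, 1.52 with equal sums and between 1.61 and 1.74 when 1 library was left out. Single values moved past the spread of the Bach2KO libraries only with the pseudocount (8 of 78). No difference of the 8 genes changed sign, and the 8 stayed apart between genotypes with equal sums. They were chosen for this pattern and lay apart in the full set. Leaving out a library or changing the pseudocount could therefore change neither result. The loci called (8566) were between 7772 and 8658 when 1 library was left out. The replicate numbers do not pair the samples (correlations of same-numbered libraries -0.038, -0.038 and 0.006). With the replicate number as a block 7886 loci were called, 4346 higher and 3540 lower. Under that block lower JAK-STAT calls went from 3 to 1 and Tbc1d10a was no longer called (-0.12, limma adjusted p = 0.0743). Lower receptor calls went from 1 to 4 under quantile normalization and with equal sums, and lay between 1 and 2 when 1 library was left out; lower JAK-STAT calls lay between 1 and 3. Lower regulator calls were 14 with equal sums, lower relatives 2 without a filter and higher neighbours 3 with a filter at 2 FPKM, where fewer loci were tested. Il10rb lay between -0.077 and 0.026 when 1 library was left out, above 0 without WT replicate 1 (0.026), WT replicate 3 (0.025) or Bach2KO replicate 1 (0.016), and Bbs12 turned to -0.11 with equal sums. Of 714 values of the 45 named genes, 695 kept their direction and call. Many of these genes were named for the smallest adjusted p of the main fit, which favours an unchanged call. Leaving out the loci with a failed estimate, chosen after the data were seen, gave 8510 calls. The 24 peaks became 8 within 10 kb, 44 within 100 kb, 15 at an FDR of at most 1% and 14 at 10-fold or more, and the 10 with the heptamer became 4, 16, 8 and 8 in turn and 1 with the longer element. The cause of these changes was not tested. Genes at 16 implied reads or fewer in the iTreg libraries, such as Il3, are limited by counting error.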
